A study of Hordeum vulgare with 10 samples.

Results

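The miRNAs described here were set side by side in seeds of low viability (Lv) and in regenerated seeds (Rc) of barley (Hordeum vulgare) cv. Damazy. Members were all miRNAs of the deposited count table, taken in the 3 Lv and 3 Rc libraries of the 9 libraries of the series. Of these, 61 were known miRNAs of 13 families and 81 were predicted, with names starting hvu-new. The embryo and scutellum of dry seeds were dissected and their small RNA was sequenced. Lv seeds had been kept from 1972 to 2018 (46 years) in a sealed, air-filled flask at ambient temperature, and germinated at 2% when sampled. Rc seeds were the offspring of the same seed lot, grown in the field from another flask that had kept its viability, and were freshly harvested and dried. By the study's methods Lv seeds also held more water when sampled than when the flask was closed.

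Each replicate was a pool of dry seeds of 1 flask (Lv) or 1 harvest (Rc), so that p-values measure only the spread between such pools. Storage, loss of viability, flask, moisture and harvest differ together between Lv and Rc and cannot be told apart. The same holds for the sequencing run. All 3 Lv libraries came from run 2 and Rc replicates 2 and 3 from run 1. Rc replicate 1 was labelled for each run, while its counts fill 1 column whose run is not stated. Run 2 thus holds the Lv libraries and at most 1 Rc library, and run 1 holds no Lv library, so that Lv and Rc were not compared within a run. The stored seeds of high viability (Hv) span both runs, with replicates 1 and 2 in run 1 and replicate 3 in run 2, and through them run could be fitted as a covariate. Lv libraries held 3966, 10353 and 11209 counts in total, against 8008, 7159 and 19542 in Rc libraries. Of these totals, 51.3%, 57.3% and 56.1% in Lv and 54.8%, 55.7% and 56.5% in Rc were counts of copies. Copies are predicted miRNAs that repeat a known one, so that the totals overstate the depth. Known miRNAs made up 940, 2492 and 2672 of the counts in Lv and 1834, 1740 and 4407 in Rc. A miRNA of a few counts in a library therefore has a large counting error, and the table holds no marker by which the dissected tissue could be checked.

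Plant miRNAs are cut by Dicer-like enzymes from hairpin precursors and are loaded into an Argonaute protein, where they pair with mRNAs and lead to cleavage or to lower translation. A dry seed keeps miRNAs made during its development, and these can act when the embryo takes up water. Several families found here act on transcription factors of development: miR156 on SPL genes, miR159 on GAMYB genes and miR166 on HD-ZIP III genes. The miR168 family acts on AGO1, the Argonaute protein that carries most plant miRNAs. IsomiRs are variants of a miRNA that differ by bases at an end.

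The sequences on which the comparison turned are given 5′ to 3′, with bases 2 to 8 (the seed) in capitals. The first set holds a pair of predicted miRNAs of 1 locus that were listed unequally in Lv and Rc. Positions are those of the barley genome build used in the study (Hv_IBSC_PGSB_v2), and an annotation of that build was not used here. Both lie on the plus strand of chromosome 5H, hvu-new2 at 137203136 to 137203156 and hvu-new5 at 137203137 to 137203156. The shift of 1 base at the 5′ end gives them different seeds.
hvu-new2: aAGTCCTCgtgttgcattcct
hvu-new5: aGTCCTCGtgttgcattcct

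The second set holds the 5 predicted miRNAs that the study assigned to miR167, a family that acts on auxin response factors. They share 1 seed and the first 20 bases, and differ at the 3′ end only. The file lists 7 loci for hvu-new49, on chromosomes 4H, 5H and 6H and on unplaced sequence, 3 each for hvu-new50 and hvu-new52 and 1 each for hvu-new51 and hvu-new53.
hvu-new49: tGAAGCTGccagcatgatct
hvu-new50: tGAAGCTGccagcatgatcta
hvu-new51: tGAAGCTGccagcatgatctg
hvu-new52: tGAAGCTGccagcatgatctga
hvu-new53: tGAAGCTGccagcatgatctgc

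The third set holds predicted miRNAs that were listed in Rc libraries and at 0 in every Lv library, and hvu-new75, whose locus overlaps that of hvu-new61. The hvu-new60 locus lies on chromosome 4H at 622673300 to 622673320 (plus strand). Those of hvu-new61 (620327681 to 620327701) and hvu-new75 (620327680 to 620327700) lie on the plus strand of 5H. The hvu-new65 locus lies on the minus strand of 6H at 133925212 to 133925232. The hvu-new73 locus, assigned by the study to miR397, lies on the plus strand of 6H at 95336411 to 95336431. The hvu-new48 sequence has 2 loci, on 1H and 2H.
hvu-new60: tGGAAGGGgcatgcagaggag
hvu-new61: tGGACGTGgaggtgcagctgc
hvu-new75: tTGGACGTggaggtgcagctg
hvu-new48: tCTTATGTtgtgggacggagg
hvu-new65: tGGCCTGTcaagtacgcgtgc
hvu-new73: tTGAGTGCagcgttgatgaac

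The fourth set holds isomiRs of the 3 most abundant known families, shown because the isomiR shares compared between Lv and Rc are those of these lengths, with hvu-new74, the most abundant predicted miRNA that repeats no known one. Within each family the forms share a seed and differ in length at the 3′ end. The hvu-new80 sequence stands for the 21-nt form of miR159, and its counts are 4 times those of miR159.6 in all 9 libraries. The sequences of miR156.3, miR159.3, miR159.6 and miR166.4 were not in the table used here.
miR156.4: uGACAGAAgagagugagca
miR156.5: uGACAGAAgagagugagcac
miR156.6: uGACAGAAgagagugagcaca
miR159.4: uUUGGAUUgaagggagcuc
miR159.5: uUUGGAUUgaagggagcucu
hvu-new80: tTTGGATTgaagggagctctg
miR166.5: uCGGACCAggcuucauucc
miR166.6: uCGGACCAggcuucauuccc
miR166.7: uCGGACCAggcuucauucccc
hvu-new74: tTGATTTCgcggctcatcttgc

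No miRNA differed between Lv and Rc at an adjusted p under 0.05 in edgeR's quasi-likelihood test. Of 99 miRNAs that had 10 counts or more over the 9 libraries this was 0 (0.0%), with 9 at an unadjusted p under 0.05 (9.09%), of which 3 were higher in Lv (3.03%) and 6 lower (6.06%). DESeq2 on the same counts called 2, hvu-new2 and miR159.5, also with 9 at an unadjusted p under 0.05. The Hv libraries were no side of the contrast. Apart from that covariate, they entered through the shared estimate of the spread, the TMM scaling and the filter on counts. Of the 99, 1 (hvu-new24) thus had 0 counts in Lv and in Rc. With the 6 Lv and Rc libraries alone, 91 were tested and edgeR called hvu-new2 and hvu-new49. In bulk libraries, fewer cells of a type and less miRNA per cell cannot be told apart.

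Of the 82 miRNAs tested that were listed in both Lv and Rc, 37 had a higher fitted level in Lv and 45 a lower one, with a median log2 fold change of -0.099. These values are relative to the TMM scaling of the count table. With mapped reads as library sizes the fold changes moved by a median of -0.36, and 25 were then higher in Lv and 57 lower. For 12 miRNAs of the 99 (12.1%) the fold change had a 95% interval wholly between -1 and 1 (log2). Among these were miR156.5, miR159.6, miR166.5 and miR166.7 of the known miRNAs and hvu-new44, hvu-new46, hvu-new52, hvu-new62 and hvu-new74 of the predicted. The other 3, hvu-new45, hvu-new54 and hvu-new80, repeat the counts of miR166.7, miR156.5 and miR159.6. Levels are given in RPM, the count per 1000000 reads of the library that mapped to the genome.

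**Figure D1:**
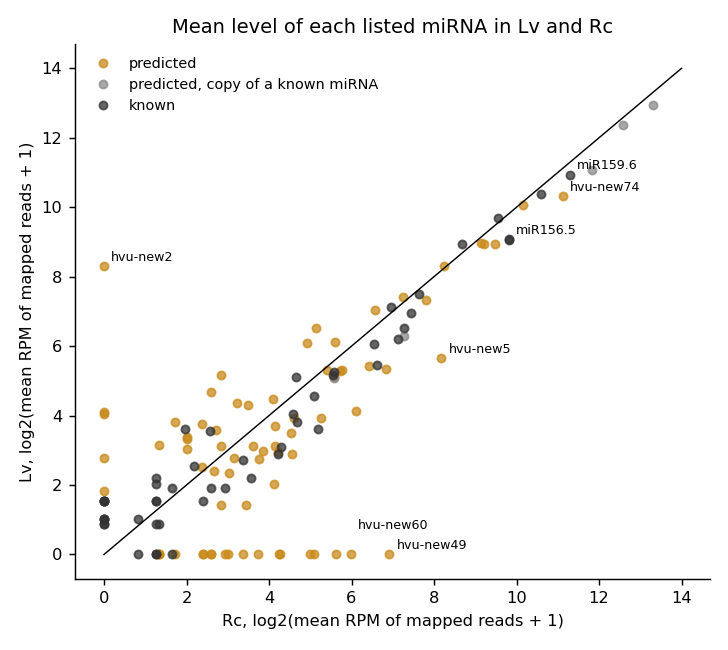
Mean level of each of the listed miRNAs in Lv (vertical) and Rc (horizontal), as log2 of the mean RPM of mapped reads + 1, with the line of equal level. Known miRNAs lie along the line, most of those tested below it (22 of 28 lower in Lv with mapped reads as library sizes). Predicted ones spread more widely (35 of 54 tested and listed in both groups lower). Among them hvu-new2 is at 0 in Rc, and hvu-new49 and hvu-new60 are at 0 in Lv.

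The known miRNAs as a whole stood at 5420.5, 7683 and 6836 RPM of mapped reads in Lv, against 7647, 7234 and 10060.1 RPM in Rc. Lv replicate 1 was the lowest of the 6 and Rc replicate 3 the highest, and the groups overlapped. The means were 6646 ± 1143 in Lv and 8314 ± 1527 in Rc (SD, n = 3 each), a difference of -0.32 on the log2(RPM + 1) scale (two-sided exact permutation test, p = 0.3, where 3 against 3 cannot go below 0.1). In CPM after TMM normalization the sign turned, to 0.035.

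The miR156 family, which acts on SPL transcription factors and delays the change of plant phase, stood at 1113, 1239 and 1133 RPM in Lv libraries. In Rc libraries it stood at 1518, 2332 and 2064 RPM. In RPM all Lv libraries lay below all Rc libraries, with little spread in Lv (1162 ± 67.9 RPM in Lv, 1971 ± 415 in Rc; SD, n = 3 each). The difference was -0.74 on the log2(RPM + 1) scale (two-sided exact permutation test, p = 0.1, the smallest possible, adjusted p = 0.3 over 9 families). In edgeR's fit of the families and loci the log2 fold change was -0.48 (with a standard error, SE, of 0.25 and adjusted p = 0.538). The sign was negative under every alternative run for the family. In TMM-normalized CPM, however, the groups overlapped (log2 difference -0.38).

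Each tested isomiR of miR156 had a negative log2 fold change, 4 of 4, with a median of -0.52, beside -0.099 over all 82 miRNAs. IsomiRs of a family were counted in the same libraries, so that they are not separate observations of a difference. The RPM of all 4 was lower in every Lv library than in any Rc library, which in TMM-normalized CPM held for 3 of the 4, with miR156.3 overlapping. Over all 99 miRNAs tested, 18 were placed this way (18.2%) and 4 the other way (4.04%), 22 in all (22.2%). In TMM-normalized CPM the shares over all 99 were 12.1% and 8.08%. The 20-nt miR156.5 had 94, 188 and 197 counts in Lv and 188, 206 and 467 in Rc. Its mean was 542 ± 37.8 RPM in Lv and 902 ± 147 RPM in Rc (SD, n = 3 each), with a log2 fold change of -0.37 (SE 0.19, edgeR adjusted p = 0.466). The 21-nt miR156.6 had 1, 5 and 5 counts in Lv and 9, 7 and 17 in Rc, too few for a share to be precise.

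The miR159 family, which acts on GAMYB transcription factors of the gibberellin response, was the most abundant. It stood at 2578, 4134 and 3661 RPM in Lv libraries and at 3769, 2831 and 5029 RPM in Rc libraries. The groups overlapped over most of their range. The difference of -0.15 (log2(RPM + 1), two-sided exact permutation test, p = 0.6, adjusted p = 0.675) turned to 0.20 in TMM-normalized CPM, so that no direction can be given. Under TMM all 4 tested isomiRs of miR159 had a positive log2 fold change, with a median of 0.37. With mapped reads as library sizes that of miR159.6 was -0.36.

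Within miR159 the forms were not equally placed. The 20-nt miR159.5 had 94, 156 and 177 counts in Lv libraries and 89, 67 and 252 in Rc libraries. As a share of the family this was 21.0%, 11.6% and 12.4% in Lv, against 9.85%, 9.84% and 11.4% in Rc. Every Lv share lay above every Rc share, though Lv replicates 2 and 3 exceeded the highest Rc share by little. The log2 fold change of miR159.5 was 0.66 (SE 0.25, 95% interval 0.10 to 1.22), with an unadjusted p of 0.0259 and an adjusted p of 0.466 in edgeR. DESeq2 gave an adjusted p of 0.0255. With mapped reads as library sizes the log2 fold change was 0.27 (edgeR adjusted p = 0.726), and over all alternatives the adjusted p lay between 0.0255 and 1.00.

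The most abundant form, miR159.6, had 222, 768 and 878 counts in Lv libraries and 564, 465 and 1433 in Rc libraries. It made up 49.7%, 57.3% and 61.4% of the family in Lv and 62.4%, 68.3% and 65.0% in Rc. Each Lv share was lower than each Rc share, the reverse of miR159.5, though shares within a family are linked and not separate observations. The mean share was 56.1% ± 5.93 in Lv and 65.2% ± 2.95 in Rc (SD, n = 3 each), a difference of -9.14 percentage points (two-sided exact permutation test, p = 0.1, adjusted p = 0.5 over 5 families). Leaving out 1 library gave differences of -11.8 to -5.93 percentage points, with -5.93 when Lv replicate 1 was left out. The miR159.6 log2 fold change was 0.015 (SE 0.25, edgeR adjusted p = 0.982), with a sign that depended on the alternative. Lv replicate 1 stood farthest from the Rc libraries in both shares, and was also the library with the fewest counts.

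The miR166 family, which acts on HD-ZIP III factors that set the polarity of organs, stood at 1361, 1964 and 1643 RPM in Lv, against 1718, 1675 and 2379 RPM in Rc. The libraries of both groups were intermixed. The difference of -0.21 (log2(RPM + 1), two-sided exact permutation test, p = 0.4, adjusted p = 0.6) became 0.14 in TMM-normalized CPM. Its main form, miR166.7, had 189, 517 and 505 counts in Lv and 330, 319 and 832 in Rc. The share of miR166.7 in the family was 80.0% ± 1.25 in Lv and 79.7% ± 0.487 in Rc (SD, n = 3 each), a difference of 0.27 percentage points (two-sided exact permutation test, p = 0.9, adjusted p = 1.0). The log2 fold change was 0.15 (SE 0.16, 95% interval -0.21 to 0.51, edgeR adjusted p = 0.781), but it was -0.21 with mapped reads as library sizes. The 20-nt miR166.6 held 8.47%, 8.32% and 8.41% of the family in Lv, against 7.77%, 6.20% and 5.66% in Rc. Its share was higher in each Lv library, as was that of the 20-nt form of miR159. The 20-nt forms of the other 3 families overlapped, with mean shares of 46.6% in Lv and 46.7% in Rc for miR156.5, 27.1% in Lv and 34.0% in Rc for miR168.9 and 13.5% in Lv and 13.8% in Rc for miR5048.3. Of 23 isomiR shares in 5 families, 7 did not overlap between Lv and Rc (30.4%), 4 of them higher in Lv (17.4%) and 3 lower (13.0%).

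**Figure D2:**
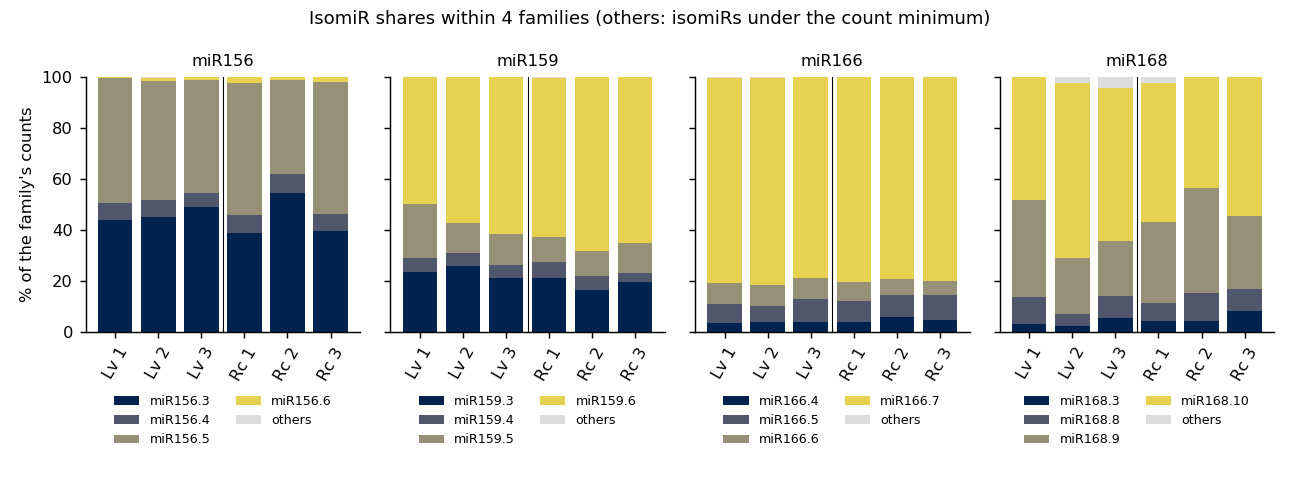
Share of each isomiR in the counts of its family, in %, per library, for miR156, miR159, miR166 and miR168, with Lv libraries left of Rc libraries. The miR159.6 segment is shorter in the Lv libraries (56.1% on average) than in the Rc libraries (65.2%), while miR166.7 holds about the same share (80.0% and 79.7%).

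The miR168 family, which acts on AGO1, stood at 167, 126 and 179 RPM in Lv, against 367, 191 and 324 RPM in Rc. In RPM every Lv library lay below every Rc library, though Lv replicate 3 and Rc replicate 2 were close. In TMM-normalized CPM Lv replicates 1 and 3 lay above Rc replicate 2, so that the groups overlapped (log2 difference -0.50). The means were 158 ± 27.6 RPM in Lv and 294 ± 91.6 RPM in Rc (SD, n = 3 each), a difference of -0.86 (log2(RPM + 1), two-sided exact permutation test, p = 0.1, adjusted p = 0.3). In edgeR's fit of families and loci the log2 fold change was -0.59 (SE 0.42, adjusted p = 0.741). All 4 tested isomiRs had a negative log2 fold change, with a median of -0.66, as had 45 of all 82 miRNAs. As variants of 1 family they are not separate observations. The main form, miR168.10, had 14, 28 and 42 counts in Lv and 48, 20 and 77 in Rc, with a log2 fold change of -0.35 (SE 0.39, edgeR adjusted p = 0.781). Its share of the family was 58.9% ± 10.1 in Lv and 50.7% ± 6.30 in Rc (SD, n = 3 each; two-sided exact permutation test, p = 0.4, adjusted p = 1.0).

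The miR171 family, which acts on GRAS transcription factors, was the only family whose RPM was higher in every Lv library than in any Rc library. It rested on 5, 6 and 9 counts in Lv and 2, 4 and 3 in Rc. In RPM this was 23.5 ± 5.18 in Lv and 10.6 ± 5.27 in Rc (SD, n = 3 each; two-sided exact permutation test, p = 0.1, adjusted p = 0.3). Its main form, miR171.2, had 3, 2 and 4 counts in Lv and 0, 1 and 2 in Rc, with a log2 fold change of 2.08 (SE 1.31, 95% interval -0.90 to 5.07, edgeR adjusted p = 0.565). Counts this low leave the size of a difference nearly undetermined. The predicted hvu-new71, which the study assigned to miR171, pointed the other way with 0, 0 and 2 counts in Lv and 2, 4 and 2 in Rc.

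Outside the study's conservation groups, miR5048 stood at 104, 141.8 and 146 RPM in Lv and at 183, 146 and 148 RPM in Rc. For this family the difference of -0.29 (log2(RPM + 1), two-sided exact permutation test, p = 0.2, adjusted p = 0.45) became 0.063 in TMM-normalized CPM. Its main form miR5048.5 had 4, 8 and 22 counts in Lv and 12, 10 and 20 in Rc, with a log2 fold change of -0.0025 (SE 0.75, edgeR adjusted p = 1.0). The barley family miR5051 stood at 41.5 ± 1.48 RPM in Lv and 58.7 ± 30.6 RPM in Rc (SD, n = 3 each), and its main form miR5051.4 had 7, 13 and 12 counts in Lv and 13, 4 and 30 in Rc (log2 fold change 0.068, SE 0.62, edgeR adjusted p = 0.979). The sign of the miR5051 difference also turned with the scaling, from -0.32 on the RPM scale to 0.031 in TMM-normalized CPM. Neither family differed beyond the spread between replicates.

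In the monocot families miR444 and miR6201, 11 and 15 counts were spread over the 6 libraries. The main form miR444.3 had 1, 0 and 1 counts in Lv and 1, 1 and 3 in Rc, and miR6201.4 had 1, 0 and 1 in Lv and 1, 1 and 5 in Rc. The miR1120 family had 5 counts, miR5049 had 2, and miR397 and miR6200 had 0 in Lv and Rc together. With 0 counts of the known miR397 in Lv and in Rc, a difference was not detectable at this depth.

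**Figure D3:**
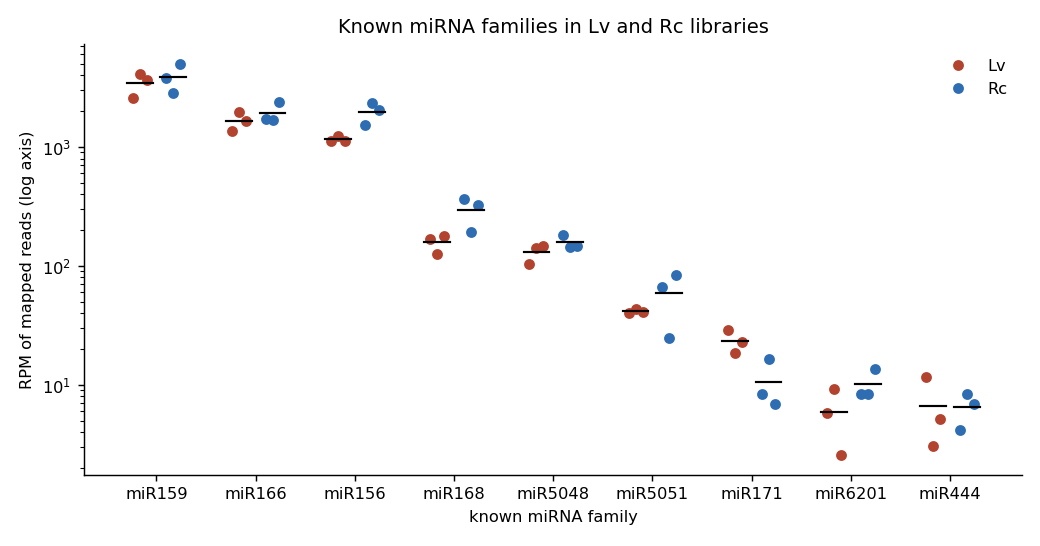
Level of the 9 known families with at least 10 counts in Lv (left of each pair) and Rc libraries, as RPM of mapped reads on a log axis, each point a library and each line the mean of 3. The groups separate for miR156 and miR168 (lower in Lv) and for miR171 (higher in Lv), each at the smallest exact p of 0.1, and overlap for the other 6. In TMM-normalized CPM, which is not drawn, miR156 and miR168 overlap as well.

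Among the 61 known miRNAs, 28 were tested, with 1 at an unadjusted p under 0.05 higher in Lv (miR159.5) and 0 lower. Their median log2 fold change was -0.18, with 10 above 0 and 18 below, and -0.54 with mapped reads as library sizes. Of the 17 tested miRNAs of families shared by monocots and eudicots, 7 lay above 0 and 10 below. Of the 61, 38 were listed in Lv and Rc, 9 in Lv only, 4 in Rc only and 10 in neither. No known miRNA listed in 1 of the groups alone had more than 2 counts in total.

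**Figure D4:**
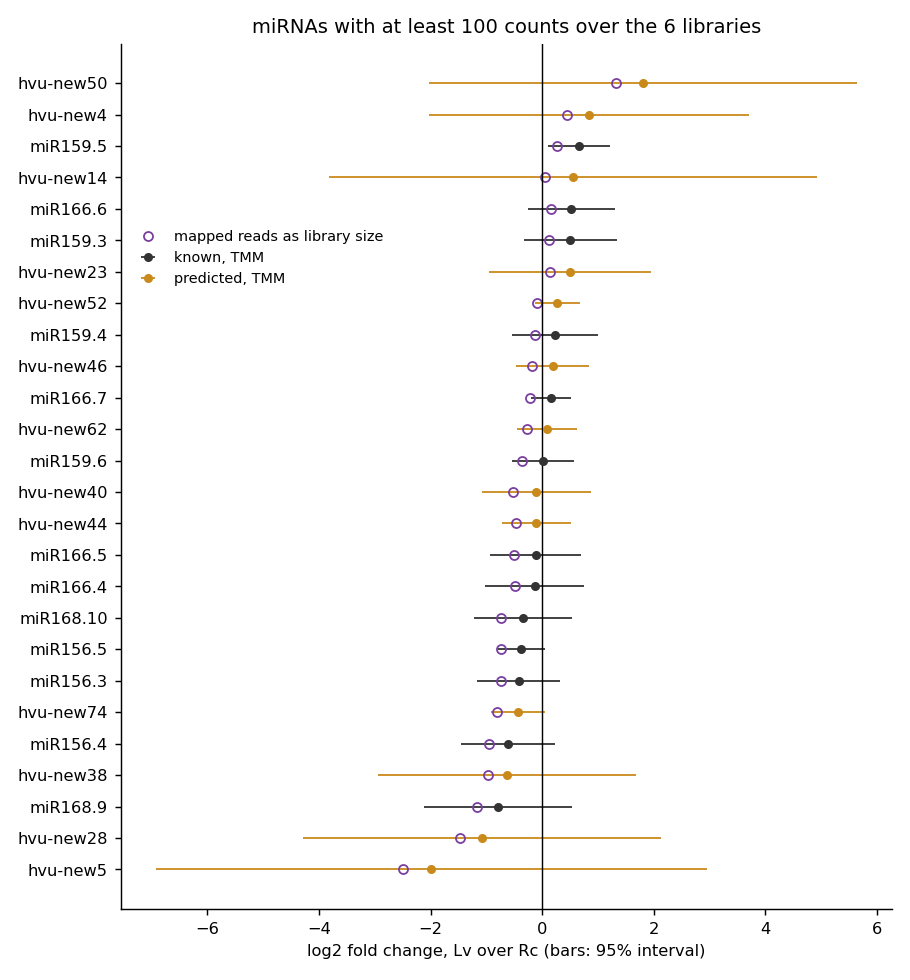
Log2 fold change of Lv over Rc for the 26 miRNAs of 100 counts or more in the 6 libraries together, listed in both groups and not copies of a known miRNA. Bars are 95% intervals from edgeR's fit, and open circles are the values with mapped reads as library sizes; miR159.5 alone has an interval above 0, and 0 have one below.

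Predicted miRNAs listed in 1 group only were more numerous and had more counts. Of the 81, 55 were listed in Lv and Rc, 5 in Lv only, 19 in Rc only and 2 in neither. Of those listed in 1 group only, 3 in Lv and 8 in Rc had at least 10 counts in total. The Rc libraries were also deeper in part, with Rc replicate 3 at 19542 counts, and the part of depth in these counts was not tested. Of the 71 predicted miRNAs tested, 2 had an unadjusted p under 0.05 with a higher value in Lv and 6 with a lower one, and 16 were at 0 in all libraries of Lv or of Rc. The 54 listed in both groups had a median log2 fold change of -0.036, with 27 above 0 and 27 below.

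The hvu-new2 miRNA had the smallest p of the 99. It had 66, 109 and 87 counts in Lv libraries and 0 in each Rc library. All Lv libraries listed it and no Rc library did. A predicted miRNA at 0 may be one that was not listed in that library, and the test reads such a 0 as a count. Fitted log2 values against a group at 0 therefore have no SE here and are not estimates of a fold change. The unadjusted p of hvu-new2 was 0.00167 and its adjusted p 0.165 in edgeR. Over the alternatives its adjusted p lay between 1.702e-05 (DESeq2) and 0.770. The 1-base shorter hvu-new5 of the same locus had 0, 0 and 58 counts in Lv and 106, 0 and 185 in Rc. Both sequences together had 66, 109 and 145 counts in Lv and 106, 0 and 185 in Rc. Lv libraries thus lay between the Rc libraries, and only Rc replicate 2 listed nothing at the locus. The sum had a log2 fold change of 0.68 (SE 1.12, 95% interval -1.82 to 3.17, edgeR adjusted p = 0.958).

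The miR167 variants showed a like pattern at the 3′ end. The most abundant, the 22-nt hvu-new52, had 195, 390 and 354 counts in Lv and 246, 255 and 594 in Rc. In RPM this was 1077 ± 154 in Lv and 1147 ± 182 in Rc (SD, n = 3 each), with a log2 fold change of 0.27 (SE 0.18, 95% interval -0.13 to 0.67, edgeR adjusted p = 0.628) that turned to -0.091 with mapped reads as library sizes. Lv and Rc libraries overlapped for this form in RPM, while in TMM-normalized CPM each Lv library lay above each Rc library. The 20-nt hvu-new49 had 0 counts in each Lv library and 24, 24 and 70 in Rc (unadjusted p = 0.0163, edgeR adjusted p = 0.466). Its bases are those that open hvu-new52, which every Lv library listed. Its fitted log2 value, -7.99, was -1.01 once run was a covariate and Rc replicate 1 was left out (edgeR adjusted p = 1.00), and -0.91 with that replicate taken as run 1. With Lv at 0 these values do not estimate a fold change, and run could be fitted in them only through the Hv libraries. The part of run was not tested.

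The remaining miR167 variants were listed in part of the libraries. The 21-nt hvu-new50 had 24, 33 and 12 counts in Lv and 0, 0 and 45 in Rc. The other 21-nt form, hvu-new51, had 0, 16 and 0 counts in Lv and 13, 16 and 37 in Rc. The 22-nt hvu-new53 had 7, 0 and 3 counts in Lv and 0 in each Rc library. All 5 variants together had 226, 439 and 369 counts in Lv and 283, 295 and 746 in Rc. The sum had a log2 fold change of 0.093 (SE 0.22, 95% interval -0.39 to 0.58, edgeR adjusted p = 0.958) and turned to -0.19 with mapped reads as library sizes.

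The hvu-new60 miRNA was listed at 0 in the 3 Lv libraries and at 11, 24 and 18 counts in the Rc libraries. No overlapping predicted sequence stood at its locus. Its unadjusted p was 0.00504 and its adjusted p 0.249 in edgeR, and DESeq2 gave an adjusted p of 0.190. Over all alternatives the adjusted p lay between 0.0873 and 1.00, the highest with run as a covariate. All its 53 counts over the 9 libraries were in Rc, so that the Hv libraries could not separate run from group for it. The highest value is therefore no evidence on the part of run, which was not tested.

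Other predicted miRNAs at 0 in Lv had few counts. The hvu-new48 miRNA had 0 in each Lv library and 6, 12 and 8 counts in Rc (edgeR adjusted p = 0.466), and hvu-new65 had 0 in each Lv library and 2 in each Rc library. For hvu-new48 the fitted log2 value of -6.12 was -1.13 once run was a covariate and Rc replicate 1 was left out (edgeR adjusted p = 1.00), and -0.99 with that replicate taken as run 1. With Lv at 0 these values, too, do not estimate a fold change or the part of run. The hvu-new73 miRNA, assigned to miR397, which acts on laccase genes, had 0 in each Lv library and 0, 18 and 31 counts in Rc (edgeR adjusted p = 0.466). With Rc replicate 1 also at 0, its groups overlapped. Its fitted log2 value of -6.73 was -1.58 with run as a covariate and that replicate taken as run 2 (edgeR adjusted p = 1.0). All its 49 counts over the 9 libraries were in Rc, so that run was fitted through that replicate alone. The change therefore follows from where the replicate was placed and does not measure run. The hvu-new61 miRNA had 0 in each Lv library and 3, 6 and 7 counts in Rc (edgeR adjusted p = 0.466). With hvu-new75 of the same locus, the counts were 0, 0 and 2 in Lv and 3, 6 and 15 in Rc, and the log2 fold change of the sum was -2.98 (SE 1.72, edgeR adjusted p = 0.538).

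**Figure D5:**
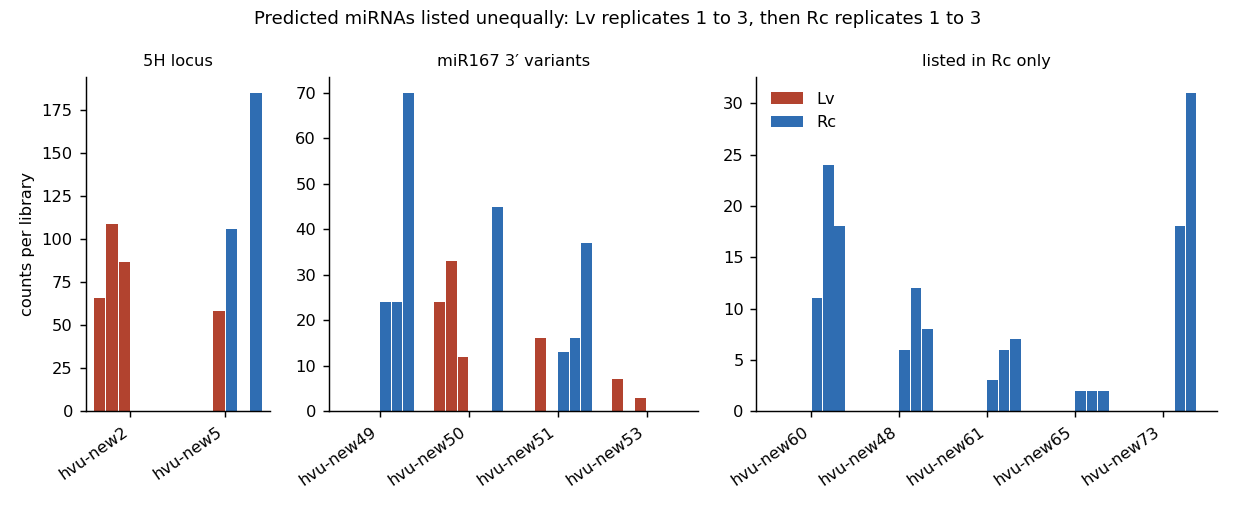
Counts per library of predicted miRNAs listed unequally in Lv (left 3 bars of each group) and Rc (right 3 bars), for the pair on chromosome 5H, 4 of the 5 miR167 variants, and 5 miRNAs at 0 in every Lv library. hvu-new2 has 66 to 109 counts in Lv and 0 in Rc, and hvu-new5 of the same locus has 0 to 58 in Lv and 0 to 185 in Rc.

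When the isomiRs of each known family were summed, copies left out and overlapping loci summed, 67 of 78 families and loci were tested and 0 passed an adjusted p of 0.05 in edgeR (0.0%). At an unadjusted p under 0.05 there were 5 (7.46%), among them hvu-new60, hvu-new48 and hvu-new73, and DESeq2 gave 0 with 4 at an unadjusted p under 0.05. Neither hvu-new2 nor hvu-new49 was among the 5 once summed with its overlapping sequences.

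Gaps in the listing were not limited to 1 group. The median count over the libraries that list a miRNA was 20 or more for 22 predicted miRNAs, of which 11 were at 0 in at least 1 of the 6 libraries, and for 12 known miRNAs, of which 0 were. The hvu-new14 miRNA had 102, 0 and 139 counts in Lv and 104, 0 and 208 in Rc, with both gaps in a replicate 2. The hvu-new28 miRNA, named after its values were seen, had 0, 0 and 46 counts in Lv and 23, 37 and 39 in Rc. Without Lv replicate 3 it was at 0 in the remaining Lv libraries, and it then was the 1 miRNA that edgeR called. How the prediction listed sequences per library was not tested.

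No abundant predicted miRNA that every library listed passed the test. The hvu-new74 miRNA (22 nt, plus strand of chromosome 2H at 131820742 to 131820763) had 145, 481 and 591 counts in Lv and 539, 439 and 1144 in Rc. Its RPM was lower in each Lv library (1277 ± 382) than in any Rc library (2228 ± 394; SD, n = 3 each), with a log2 fold change of -0.44 (SE 0.21, 95% interval -0.92 to 0.049, edgeR adjusted p = 0.466). The hvu-new40 miRNA had 98, 67 and 276 counts in Lv and 164, 124 and 406 in Rc (log2 fold change -0.10, SE 0.43, edgeR adjusted p = 0.964). The hvu-new62 miRNA stood at 375, 666 and 440.1 RPM in Lv and at 475, 590.3 and 712 RPM in Rc (log2 fold change 0.081, SE 0.24, edgeR adjusted p = 0.963). Both overlapped between the groups.

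The hvu-new44 and hvu-new46 miRNAs share the seed of miR166. The hvu-new46 miRNA had 82, 228 and 128 counts in Lv and 103, 105 and 365 in Rc (log2 fold change 0.19, SE 0.29, edgeR adjusted p = 0.832). The hvu-new44 miRNA had 24, 60 and 62 counts in Lv and 48, 44 and 126 in Rc (log2 fold change -0.10, SE 0.27, edgeR adjusted p = 0.953). Like miR166 itself, neither differed beyond its error. The hvu-new69 miRNA, assigned to miR396, which acts on growth-regulating factors, had 8, 10 and 14 counts in Lv and 14, 10 and 24 in Rc (log2 fold change -0.086, SE 0.99, edgeR adjusted p = 0.982). The hvu-new41 miRNA had 2, 5 and 4 counts in Lv and 0, 3 and 0 in Rc, with a log2 fold change of 1.82 (SE 1.63, 95% interval -2.06 to 5.69, edgeR adjusted p = 0.692). It was listed in each Lv library and in 1 Rc library, and the groups overlapped. The copies hvu-new45, hvu-new54 and hvu-new43 carry the counts of miR166.7, miR156.5 and miR168.10 (hvu-new45 and hvu-new54 at 4 times) in at least 4 of the 6 libraries, and give no further evidence.

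The likeness of libraries was also higher for known than for predicted miRNAs. Over the 28 known miRNAs tested, Pearson's r of log2(RPM + 1) across miRNAs was 0.889 to 0.954 for Lv with Rc libraries, 0.904 to 0.957 among Lv and 0.949 to 0.971 among Rc libraries. Over 66 predicted miRNAs without the copies, r was 0.317 to 0.516 for Lv with Rc, 0.470 to 0.721 among Lv and 0.546 to 0.611 among Rc libraries. Replicates of a group were thus more alike in predicted miRNAs than libraries of different groups in most pairs, and the part of the run, which separates Lv from Rc replicates 2 and 3, was not tested. These correlations are across miRNAs within libraries, and miRNAs are not independent replicates.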

How the data were processed

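Small RNA of 3 Lv, 3 Rc and 3 Hv libraries was sequenced by the authors, who trimmed reads, removed tRNA and rRNA, mapped the rest to the barley genome with the UEA Small RNA Workbench, counted known miRNAs (miRProf, without mismatches) and predicted others (miRCat). The deposited raw counts of all miRNAs were used without normalization by the authors, and the columns of their own DESeq2 comparison (normalized values, fold changes, p-values) were not used. From the counts, edgeR 4.0.16 (R 4.3.3; TMM, at least 10 counts over 9 libraries) fitted the 3 groups with its quasi-likelihood test, contrast Lv minus Rc, Benjamini-Hochberg adjusted at 0.05. A collapsed table summed isomiRs and loci overlapping by at least 15 bases and left out 5 copies. DESeq2 1.42.0, without the minimum of 10 counts, was the alternative tool. RPM used the mapped reads the study gives per library, and exact two-sided permutation tests (scipy 1.17.1) used log2(RPM + 1) for families with at least 10 counts, and shares for those with at least 100. Deposited counts of known miRNAs exceed the matched reads of the study's data summary, so that counts may not be single reads and RPM serves to compare libraries only.

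Sequences are those of the study's supplementary tables, found for 81 predicted and 47 known miRNAs. Named are the 5 miRNAs of smallest p, those listed in all libraries of 1 group and none of the other, the main isomiR per family, the 10 predicted of most counts, those the study names or assigns, and their overlapping partners. The choice of further isomiRs and of hvu-new28 came after seeing values. Members and lists were chosen with earlier results of these data known. Alternatives were other scalings, filters and tools, the replicate block, run as a covariate and leaving out each library. The total counts per library, 3966 to 19542, limit the precision, and 51.3% to 57.3% of them were counts of copies.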

Additional observations from a re-analysis of the deposited data

How the results depend on the processing

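The count of miRNAs called by edgeR at an adjusted p of 0.05 was 0 of 99, and it was 2 with DESeq2 (hvu-new2, miR159.5), 1 without a filter on low counts (hvu-new2), 2 with only the 6 Lv and Rc libraries (hvu-new2, hvu-new49) and 0 with RLE, mapped reads as library sizes, copies left out and run as a covariate. Leaving out 1 library gave 0 to 1 for miRNAs and 0 to 1 for families and loci, in both cases hvu-new28 without Lv replicate 3. The cause was not tested. For families and loci every other alternative gave 0, as did family levels and isomiR shares under each of theirs. The run covariate with Rc replicate 1 taken as run 1 or run 2 was chosen after seeing the data. At these depths a miRNA of few counts gives a wide interval, so that most comparisons cannot tell a small difference from 0.

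Replicate numbers are shared between Lv and Rc, but nothing ties same-numbered samples together. Their deviations from the group means correlated at 0.016, 0.23 and 0.092, and replicate 3 correlated better with another number (0.25). With the replicate block the test called 0 miRNAs and 0 families and loci, with 6 and 3 at an unadjusted p under 0.05, and turned miR159.6 to -0.018 on the log2 scale.

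The sum of known miRNAs turned to 0.035 in TMM-normalized CPM. So did the families miR159 (0.20), miR166 (0.14), miR444 (0.23), miR5051 (0.031) and miR5048 (0.063). With mapped reads as library sizes the log2 fold change turned to -0.36 for miR159.6, -0.21 for miR166.7, -0.34 for miR5051.4, -0.091 for hvu-new52, -0.26 for hvu-new62, -0.18 for hvu-new46 and -0.19 for the sum of the miR167 variants. With a run covariate and no Rc replicate 1 it turned to -0.48 for miR159.6, -0.14 for miR166.7, 0.091 for miR168.10, 0.31 for hvu-new40, -0.38 for hvu-new62, -0.096 for the miR167 variants and 1.47 for the sum of hvu-new61 and hvu-new75. With Rc replicate 1 taken as run 1 it was -0.45 for miR159.6, -0.083 for miR166.7, 0.32 for hvu-new40, -0.25 for hvu-new62 and 1.83 for hvu-new61 with hvu-new75, and taken as run 2 -0.12 for miR159.6 and 0.044 for hvu-new40. Copies left out gave -0.11 for miR159.6, -0.071 for miR5051.4 and -0.047 for hvu-new62, and miR159.6 stood at -0.042 without the filter and -0.033 with 6 libraries. DESeq2 and RLE turned miR5048.5 to 0.083 and 0.044, and RLE turned hvu-new69 to 0.0071. None of these values passed a threshold in either direction.

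Leaving out 1 library in turn gave log2 fold changes of -0.14 to 0.22 for miR159.6, -0.61 to 0.21 for miR5048.5, -0.28 to 0.34 for miR5051.4, -0.49 to 0.26 for hvu-new40, -0.16 to 0.21 for hvu-new62, -0.087 to 0.40 for hvu-new46, -0.29 to 0.053 for hvu-new69 and -0.046 to 0.28 for the miR167 variants. RPM differences ran from -0.36 to 0.054 for miR159, -0.53 to 0.28 for miR444 and -0.84 to 0.019 for miR5051, and share differences from -5.01 to 2.46 percentage points for miR156.5, -0.33 to 0.92 for miR166.7 and -9.06 to 1.54 for miR5048.5.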

Other observations

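Among the 49 predicted miRNAs other than copies that were tested and listed in Lv and Rc, 25 had a log2 fold change above 0 and 24 below. By length, 7 of the 10 of 22 nt lay above 0 (median 0.84), against 12 of the 25 of 21 nt (median -0.086) and 6 of the 14 of 20 nt (median -0.32). By first base, 6 of the 8 starting with A, 8 of the 9 starting with C and 11 of the 27 starting with U lay above 0, as did 0 of the 5 starting with G. These counts were made after the values were seen, were not tested, and are relative to the TMM scaling. Across these 49 miRNAs GC content and log2 fold change had a Pearson's r of -0.16, and across 21 known miRNAs with a sequence an r of -0.25, where miRNAs are not independent replicates.

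Besides hvu-new2 and miR171.2, the RPM of hvu-new22 and hvu-new66 was higher in every Lv library than in any Rc library, a choice made after seeing the values. Together these were 4 of the 99 miRNAs tested (4.04%). The hvu-new22 miRNA had 2, 15 and 6 counts in Lv and 2, 0 and 3 in Rc, and hvu-new66 had 14, 19 and 24 in Lv and 9, 12 and 0 in Rc.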
